A study of Mus musculus with 12 samples.

Results

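Transcript levels of 10 transcription factors that pattern the progenitors of the ventral spinal cord were followed in bulk RNA of the E12.5 mouse cord. The genes were a fixed list, Nkx2-2, Olig2, Olig1, Nkx6-1, Nkx6-2, Irx3, Irx5, Pax6, Dbx1 and Dbx2, and were found by NCBI gene identifier among the 45777 identifiers of each table. Ventral cord was dissected around the Hb9::GFP reporter, which labels motor neurons (MNs), at the brachial and the lumbar level, so each library holds MNs, progenitors and interneurons together. At each level 3 libraries were from Isl2 +/- embryos (Het) and 3 from Isl2 -/- embryos (KO), 12 libraries in all, and no wild-type library was analysed here. In the KO allele a neomycin cassette replaces exons of Isl2, a LIM homeodomain factor of postmitotic MNs, and all embryos of both genotypes carry at least 1 such allele. By the study's methods the 3 libraries of a group are from separate animals, and 3 Het and 3 KO animals are named for the brachial and lumbar cords together. Brachial and lumbar libraries may therefore share animals, which the labels do not state. Ddx3y, a Y-linked gene, was above 1 TPM in 2 of 3 brachial Het and in 1 of 3 lumbar Het libraries, which would not be seen if the same 3 embryos gave both. The level comparison treats the libraries as independent. In bulk tissue, fewer cells of a type and less RNA per cell cannot be told apart.

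Sonic hedgehog (Shh) from the floor plate and notochord divides ventral progenitors into stripes called p3, pMN, p2, p1 and p0, from ventral to dorsal. Each stripe is defined by a combination of homeodomain and bHLH factors, some induced by Shh and others repressed by it, and factors with a common border repress each other. Nkx2-2 marks p3, Olig2 and its neighbour Olig1 mark pMN, Nkx6-1 spans p3, pMN and p2, and Nkx6-2 is strongest in p1. Pax6 and Irx3 are on the dorsal side of these borders, and Dbx2 and Dbx1 mark p1 and p0. The pMN stripe makes MNs first and oligodendrocyte precursors later. Nkx6-1 and Nkx6-2 are also found in some postmitotic MNs.

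Values are TPM (a length-scaled transcript level with a fixed total per library) rescaled between libraries, and differences are on the log2(TPM + 0.1) scale. "Called" means a Benjamini-Hochberg adjusted p under 0.05 in limma over all genes tested. All 10 genes passed the filter on low values, a mean TPM of at least 0.5, in each comparison. Depth was 4.48 to 6.64 Gb of aligned bases, lowest in brachial KO replicate 3. Isl2 ran from 8.33 to 9.72 TPM in brachial Het and from 4.47 to 7.28 in brachial KO, and from 8.43 to 10.3 in lumbar Het and from 6.53 to 8.24 in lumbar KO. On this scale the genotypes did not overlap at either level, as was so for 20.1% of all genes tested in brachial cord and 9.94% in lumbar cord, and Isl2 was not called (adjusted p = 0.357 and 0.999). On TPM as deposited, brachial KO replicate 2 (9.08) was above the brachial Het libraries (8.61 to 9.04). Transcript remained in every KO library. Mnx1 (Hb9), the MN factor behind the reporter, ran from 37.5 to 67.2 TPM over the 12 libraries.

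Olig2 lies on the plus strand of chromosome 16 (GRCm38, 91225550 to 91228677), and Olig1 begins 41.1 kb beyond its end. Irx3 lies on the minus strand of chromosome 8 (91798511 to 91801654), with the Irx5 start 556.1 kb beyond its higher coordinate. Nkx6-1 lies on the minus strand of chromosome 5 (101659184 to 101664711). Of the 10 genes, 5 overlap a gene on the opposite strand, and the strand setting of the authors' quantification is not given in the sources used here. The overlapping genes were Nkx2-2os and 6430503K07Rik at Nkx2-2, Gm52261 at Olig2, Gm33031 and Inpp5a at Nkx6-2, Pax6os1 and Elp4 at Pax6, and Gm31690 at Dbx2. The non-coding ones averaged at most 0.539 TPM, whereas Inpp5a averaged 8.82 TPM and Elp4 9.93 TPM.

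The promoters of the members that differed between levels are shown for those in the RefSeq promoter table (GRCm38.p6), which holds 8 of the 10 genes and has no entry for Olig1 or Irx5. Each is written 5′ to 3′ on the gene's strand, from 250 bases before the annotated start to 50 after it, with CpG dinucleotides in capitals. They cover chr16:91225300-91225599 (+) for Olig2, chr5:101664662-101664961 (-) for Nkx6-1 and chr8:91801605-91801904 (-) for Irx3.
Olig2: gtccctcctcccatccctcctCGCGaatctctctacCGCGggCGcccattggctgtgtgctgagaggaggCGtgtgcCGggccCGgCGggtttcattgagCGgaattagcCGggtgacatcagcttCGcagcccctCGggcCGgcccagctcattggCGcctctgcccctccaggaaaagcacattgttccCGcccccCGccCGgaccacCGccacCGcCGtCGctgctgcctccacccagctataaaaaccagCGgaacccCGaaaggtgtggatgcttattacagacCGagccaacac
Nkx6-1: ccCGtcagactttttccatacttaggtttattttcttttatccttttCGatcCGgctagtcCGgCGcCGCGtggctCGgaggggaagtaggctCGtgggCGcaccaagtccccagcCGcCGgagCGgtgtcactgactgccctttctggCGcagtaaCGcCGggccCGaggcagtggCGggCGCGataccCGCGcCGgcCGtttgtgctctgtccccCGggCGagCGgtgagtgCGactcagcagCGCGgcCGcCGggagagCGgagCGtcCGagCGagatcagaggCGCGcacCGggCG
Irx3: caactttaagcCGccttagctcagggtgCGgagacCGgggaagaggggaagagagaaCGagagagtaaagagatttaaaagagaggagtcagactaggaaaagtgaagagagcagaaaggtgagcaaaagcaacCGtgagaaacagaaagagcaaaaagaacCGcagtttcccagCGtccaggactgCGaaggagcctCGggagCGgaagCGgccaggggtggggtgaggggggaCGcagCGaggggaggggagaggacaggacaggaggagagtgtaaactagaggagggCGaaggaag
Olig2 has 25 CpGs, Nkx6-1 40 and Irx3 14, and over 9 windows of 8 members (Pax6 has 2 starts) the count ran from 10 to 40, against a median of 7 over 32851 mouse promoters. GC content of the member windows ran from 46.3% to 67.3%, against a median of 52.7%. On both strands, the Gli site GACCACCCA was in 0 of the 9 windows and in 0.253% of all promoters, and the homeodomain core TAATTA was in 0 windows and in 5.29% of promoters. The E-box CANNTG was in 4 windows and in 72.3% of promoters. The TATA box TATAAA was in 2 windows, Olig2 and Dbx1, and in 13.6% of promoters. These are matches of letters in a short window and say nothing of binding.

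Averaged over the 12 libraries, Pax6 was the most abundant (20.4 TPM), followed by Irx5 (19.0), Irx3 (17.1) and Nkx6-2 (12.9). A lower tier held Nkx6-1 (5.11), Dbx2 (4.68), Dbx1 (4.18), Olig2 (3.52), Olig1 (2.68) and Nkx2-2 (1.83). Nkx6-2 was above Nkx6-1 in 12 of 12 libraries, and Irx3 above Nkx6-2 in 11. Places in the lower tier differed by level. Nkx6-1 was above Dbx2 in 0 of 6 brachial and 5 of 6 lumbar libraries, and Olig1 above Nkx2-2 in 5 of 6 and 1 of 6. Mean Olig1 was 4.44 TPM at the brachial level, above Nkx6-1 (3.51), and 0.918 at the lumbar level, the lowest of the 10. Pax6 varied least, with its highest library at 1.45 times the lowest, and Olig1 most, at 53.9 times. Mean coverage per base was lowest for Olig1 in lumbar KO replicate 2 (0.418), was 1.26 to 3.33 for Nkx2-2 over the 12 libraries, and never fell under 18.8 for Pax6.

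**Figure D1:**
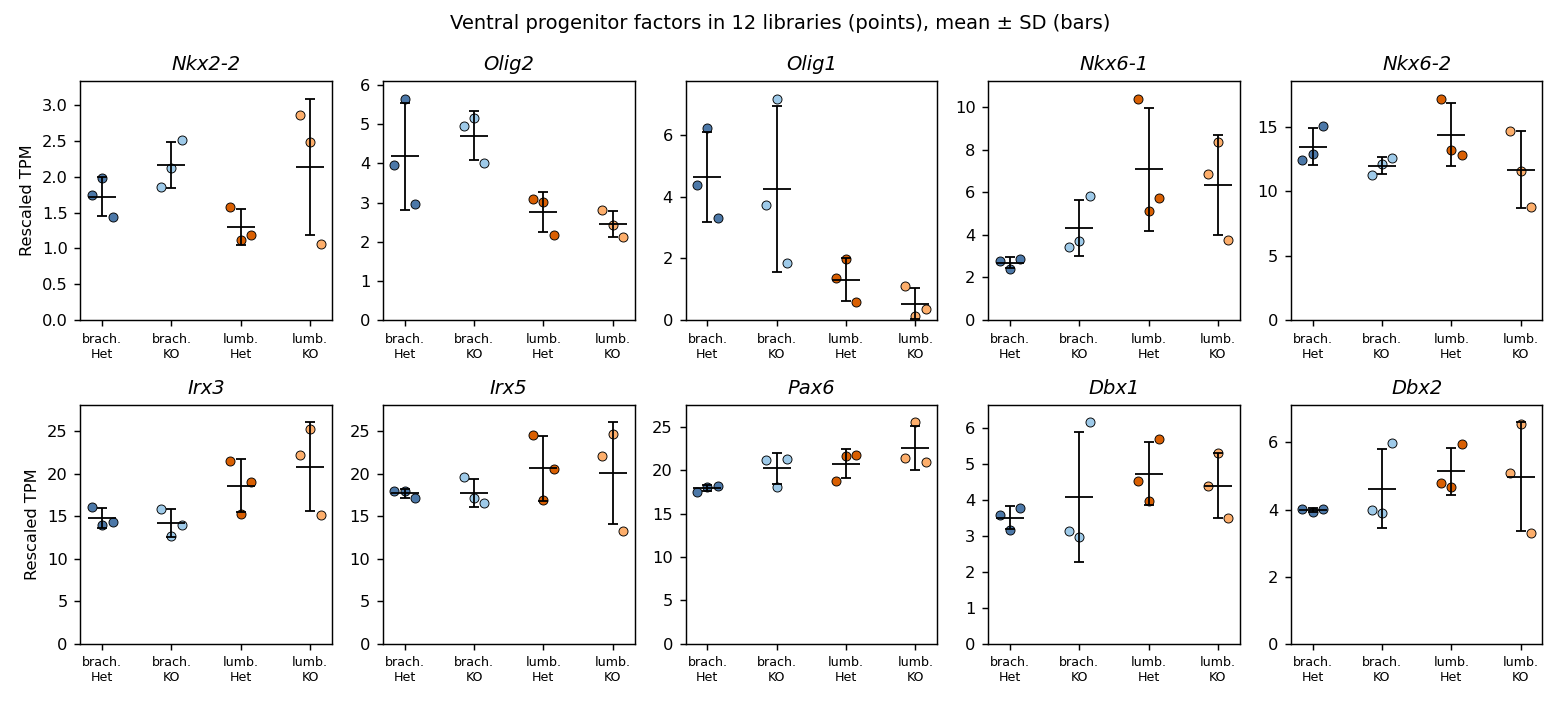
Rescaled TPM of the 10 factors (linear axes from 0) by group; points are the 3 libraries, bars the mean ± SD. Olig1 and Olig2 sit lower in the lumbar groups and Nkx6-1 higher, and no member separates the 6 lumbar from the 6 brachial libraries completely.

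Between limb levels, 4 of the 10 factors were called. Both pMN factors were lower at the lumbar level, Olig1 to 0.193 times and Olig2 to 0.601 times the brachial level, and Nkx6-1 (1.86 times) and Irx3 (1.34 times) were higher. Over all 16706 genes, 18.5% were called, 9.62% lower and 8.91% higher, so a call between levels was common in this tissue. Groups of 6 that did not overlap were found for 8.31% of genes and for 0 of the 10 factors.

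Olig1, a bHLH factor of pMN and of oligodendrocyte precursors, was at 4.37, 6.21 and 3.31 TPM in brachial Het and 3.73, 7.17 and 1.85 in brachial KO. At the lumbar level it was at 1.37, 1.98 and 0.575 TPM in Het and 1.09, 0.133 and 0.371 in KO. Only the highest lumbar library, Het replicate 2, passed the lowest brachial one, KO replicate 3. The difference was -2.38 (SE 0.45, 95% interval -3.34 to -1.41, adjusted p = 0.00359), and between -2.59 and -2.07 in 12 fits that each omitted 1 library. With a pseudocount of 1 in place of 0.1 it was -1.50 (adjusted p = 0.00221).

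Olig2, the bHLH factor needed for MN and oligodendrocyte fate, was at 3.95, 5.65 and 2.95 TPM in brachial Het and 4.95, 5.17 and 4.0 in brachial KO. Its lumbar levels were 3.08, 3.01 and 2.17 TPM in Het and 2.8, 2.42 and 2.13 in KO. Brachial Het replicate 3 lay among the lumbar libraries, and the other brachial libraries lay above all of them. The difference was -0.73 (SE 0.16, 95% interval -1.09 to -0.38, adjusted p = 0.00867). Olig1 and Olig2 were called without any single library, with adjusted p-values up to 0.0115 for Olig1 and 0.0247 for Olig2.

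Nkx6-1, the homeodomain factor of the most ventral stripes, was at 2.79, 2.39 and 2.88 TPM in brachial Het and 3.45, 3.73 and 5.85 in brachial KO. At the lumbar level it was at 10.4, 5.11 and 5.74 TPM in Het and 6.88, 8.37 and 3.75 in KO. The overlap came from brachial KO replicate 3, which lay above lumbar Het replicates 2 and 3 and lumbar KO replicate 3. The other 5 brachial libraries (2.39 to 3.73) lay below the lowest lumbar one (3.75). The difference was 0.90 (SE 0.25, 95% interval 0.37 to 1.43, adjusted p = 0.0237). The call was lost without brachial Het replicate 2 (adjusted p = 0.0615) and without lumbar KO replicate 2 (0.0552), with differences of 0.82 and 0.84. It was also lost with no filter (0.0539), with TPM as deposited (0.0707) and with a replicate block (0.0553). That block takes same-numbered brachial and lumbar libraries of a genotype as pairs, which the labels do not state.

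Irx3, an Iroquois homeodomain factor that meets Olig2 at the pMN border, was at 16.1, 14.0 and 14.3 TPM in brachial Het and 15.9, 12.7 and 14.0 in brachial KO. Its lumbar levels were 21.5, 15.3 and 19.0 TPM in Het and 22.2, 25.2 and 15.1 in KO. Lumbar Het replicate 2 and lumbar KO replicate 3 lay within the brachial range. The difference was 0.42 (SE 0.12, 95% interval 0.15 to 0.69, adjusted p = 0.0331). This call was marginal: in 8 of 12 leave-outs the adjusted p rose to between 0.051 and 0.0818, with the difference between 0.34 and 0.42. It was 0.0669 with no filter and 0.162 with TPM as deposited. The 8 libraries were brachial Het replicates 2 and 3, brachial KO replicates 2 and 3, lumbar Het replicates 1 and 3, and lumbar KO replicates 1 and 2.

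The other 6 factors were not called between levels. Nkx2-2, the p3 factor, differed by -0.26 (95% interval -0.72 to 0.21), and Nkx6-2 by 0.01 (-0.24 to 0.27). Irx5, the neighbour of Irx3, differed by 0.17 (-0.12 to 0.46). Pax6 differed by 0.18 (0.03 to 0.33, adjusted p = 0.0819), the narrowest interval of the 10. For the p0 and p1 factors the differences were 0.29 (-0.10 to 0.68) for Dbx1 and 0.21 (-0.14 to 0.56) for Dbx2.

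**Figure D2:**
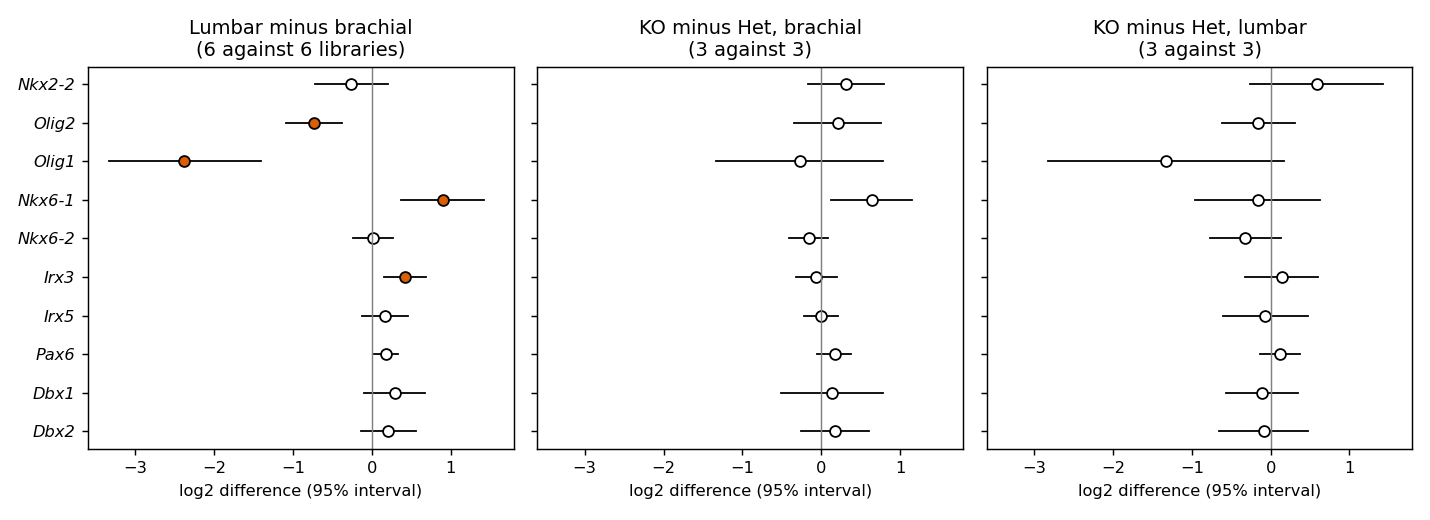
Fitted log2 differences with 95% intervals for each factor, between levels (left) and between genotypes at each level (middle, right); filled points are called. Filled points are Olig2, Olig1, Nkx6-1 and Irx3 on the left, and every point is open in the genotype panels.

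Values of the 2 genotypes were also fitted apart, with 3 libraries against 3. Olig1 was lower at the lumbar level by -1.85 in Het (adjusted p = 0.0617) and -2.90 in KO (0.0603), and Olig2 by -0.55 (0.286) and -0.91 (0.0517). Nkx6-1 differed by 1.30 in Het (0.0457) and by 0.50 in KO (0.386), and Irx3 by 0.32 (0.225) and 0.52 (0.155). Each direction was the same in both genotypes, and Nkx6-1 in Het was the only call left.

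In 3 of 4 pairs of related genes the ratio of the pair differed between levels. The pairs were chosen after the values had been seen, and 1 or both genes of each of these 3 had been called between levels, so the p-values partly restate those calls. Within each library, the plain ratio of one gene to its relative does not depend on the scaling between libraries. The log2 ratios that were tested add 0.1 to each rescaled TPM, so they depend on it in part, most where a gene is low. The Olig1 to Olig2 ratio ran from 0.463 to 1.39 at the brachial level and from 0.0549 to 0.655 at the lumbar level. On the log2(TPM + 0.1) scale the lumbar ratio was lower by -1.64 (two-sided exact permutation test within genotype, 400 arrangements, p = 0.005, the smallest the design can give, adjusted over 4 ratios 0.0133). The Nkx6-1 to Nkx6-2 ratio rose from 0.186 to 0.465 at the brachial level to 0.386 to 0.722 at the lumbar level, by 0.89 (exact permutation p = 0.01, adjusted 0.0133). The Irx3 to Irx5 ratio rose from 0.744 to 0.893 to between 0.875 and 1.13, by 0.25 (exact permutation p = 0.01, adjusted 0.0133). The Dbx1 to Dbx2 ratio stayed between 0.755 and 1.06 over the 12 libraries, with a difference of 0.08 (exact permutation p = 0.41).

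**Figure D3:**
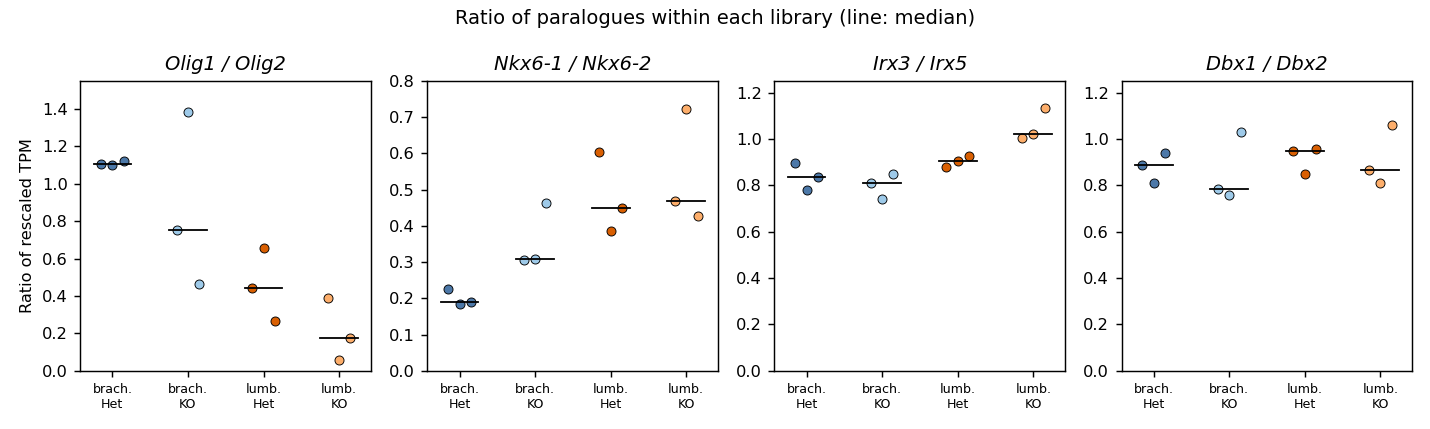
Ratio of rescaled TPM between related genes within each library (linear axes from 0), by group; points are libraries and lines medians. Olig1 to Olig2 has medians of 1.11, 0.753, 0.443 and 0.174 from brachial Het to lumbar KO, and Dbx1 to Dbx2 remains near 0.876, its median over all libraries.

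Between genotypes at the brachial level, Nkx6-1 was higher in all 3 KO libraries than in any Het library, and the other 9 factors overlapped. In this comparison 0 of the 10 factors and 0.00596% of genes (1 of 16775) were called. At an unadjusted p under 0.05 there were 2330 genes, 1 of them a member. A two-sided form of the study's threshold, which the study states for genes lower in KO, is a log2 fold change beyond 0.5 in either direction with an unadjusted p under 0.05. It was passed by 1 factor, Nkx6-1, which was higher in KO, and by 3.08% of genes. Its 3 KO libraries (3.45 to 5.85 TPM) lay above its 3 Het libraries (2.39 to 2.88), and groups that did not overlap were found for 20.1% of genes. The difference was 0.64 (SE 0.22, 95% interval 0.12 to 1.15, adjusted p = 0.357 in limma). Without brachial KO replicate 3 it was 0.41, and without brachial Het replicate 2 it was 0.56, and with either left out it did not pass that two-sided threshold. With 3 libraries against 3, an exact permutation test of a single gene cannot go under p = 0.1.

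The remaining brachial differences were small or imprecise. Irx3, Irx5, Nkx6-2, Pax6 and Dbx2 lay between -0.16 and 0.18, with intervals within -0.41 to 0.61. Olig2 differed by 0.21 (95% interval -0.35 to 0.76), Olig1 by -0.27 (-1.33 to 0.78), Nkx2-2 by 0.31 (-0.17 to 0.80) and Dbx1 by 0.14 (-0.51 to 0.78). In brachial KO replicate 3, Dbx1 was at 6.16 TPM against 2.96 to 3.78 in the other brachial libraries, and Dbx2 at 5.98 against 3.91 to 4.03. Without that library the Dbx1 difference was -0.19 and that of Olig1 0.20.

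At the lumbar level 0 of the 10 factors and 0% of 16629 genes were called. At an unadjusted p under 0.05 limma gave 808 genes and 0 members. The two-sided threshold was passed by 1.77% of genes and by 0 members, and groups did not overlap for 9.94% of genes and for 0 members. Olig1 had the largest difference of the 10, -1.33 (SE 0.65, 95% interval -2.82 to 0.17, adjusted p = 0.999 in limma), with KO at 0.133 to 1.09 TPM and Het at 0.575 to 1.98. It passed the two-sided threshold without Het replicate 3 (-1.78) or KO replicate 1 (-1.94), and was -0.76 without KO replicate 2. With a pseudocount of 1 it was -0.59.

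Nkx2-2 was at 1.58, 1.12 and 1.18 TPM in lumbar Het and 2.86, 2.49 and 1.06 in lumbar KO, with 2 KO libraries above all Het libraries and KO replicate 3 below them. Its difference was 0.59 (95% interval -0.26 to 1.43), and 1.0 without KO replicate 3, which passed the two-sided threshold as a gene higher in KO, with an adjusted p of 1.0. On read coverage in place of TPM the difference was -0.05. Nkx6-2 differed by -0.32 (-0.77 to 0.13). The other 7 factors lay between -0.16 and 0.14, with 95% intervals within -0.96 to 0.63, the widest that of Nkx6-1.

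The effect of genotype was not shown to differ between levels for any factor. Of the 10 factors 0 were called in the interaction fit, with 0% of 16706 genes called and 738 genes at an unadjusted p under 0.05, 0 of them members. The smallest member p was that of Nkx6-1, whose lumbar effect was below its brachial one by -0.80 (95% interval -1.79 to 0.19, adjusted p = 0.812 in limma). For Olig1 the difference of effects was -1.05 (-2.96 to 0.86).

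Genes listed for oligodendrocyte precursors, the later product of pMN, were lower at the lumbar level together with Olig1 and Olig2. Genes listed for microglia, endothelium, mesenchyme and Schwann cells were also called lower there. Which cells carried these transcripts was not tested. Of 4 listed genes 3 were called lower and 0 higher, with a median of -0.93 against 0.01 over all genes tested. Among all genes tested, 9.62% were called lower. Pdgfra, the receptor that drives precursor division, fell from a mean of 1.77 to 0.514 TPM (-1.47, adjusted p = 0.017). Sox8 fell from 4.79 to 2.83 TPM (-0.74, adjusted p = 0.0111) and Cspg4, which encodes NG2, from 1.7 to 1.1 TPM (-0.57, adjusted p = 0.0401). Sox10 differed by -1.13 (adjusted p = 0.0766), and it also marks Schwann cells. Brachial KO replicate 2 was the highest of all libraries in Olig1, Sox8, Pdgfra and Sox10, whereas brachial KO replicate 3 had the lowest brachial Olig1 and Pdgfra. By genotype 0 of the 4 were called at either level.

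**Figure D4:**
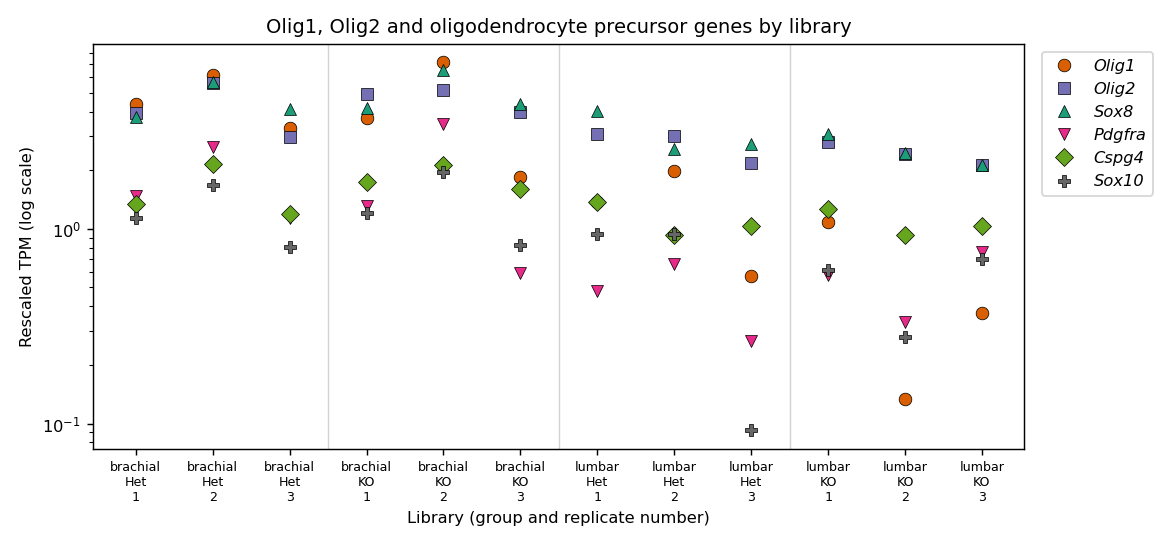
Rescaled TPM (log axis) of Olig1, Olig2 and the 4 oligodendrocyte precursor genes in each library. Olig1 runs from 1.85 to 7.17 in the brachial libraries and from 0.133 to 1.98 in the lumbar ones, and Pdgfra from 0.596 to 3.45 and from 0.264 to 0.765.

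Genes called in other patterning lists are to be read against the 18.5% called over all genes. Of 6 further ventral and intermediate progenitor factors 5 could be tested, and 2 were called higher at the lumbar level and 0 lower, with a median of 0.51. Foxn4, a p2 factor for V2 neurons, rose from 0.493 to 1.4 TPM (1.24, adjusted p = 0.0118), and Prdm8, a zinc-finger factor, from 10.0 to 14.3 TPM (0.51, adjusted p = 0.00866). Of 9 dorsal progenitor factors 8 were tested and 0 called, with a median of 0.53. In the Shh pathway 3 of 14 genes were called higher and 0 lower, with a median of 0.32. These were Smo, the signal transducer (0.30, adjusted p = 0.0126), Hhip, which binds and limits Shh (0.51, 0.0185), and Boc, a co-receptor (0.43, 0.0499). The floor plate list had 0 of 5 tested genes called, with a median of 0.26.

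Neurons born from these stripes and general progenitor genes showed calls in both lists. Of 15 neuronal genes 4 were called higher at the lumbar level and 0 lower, with a median of 0.23. Among them, Sim1 of V3 neurons differed by 0.60 (adjusted p = 0.0176), En1 of V1 neurons by 0.79 (0.0205) and Sox14 of V2 neurons by 0.54 (0.0489). Of 14 general progenitor genes 8 were called higher and 2 lower, with a median of 0.40. Top2a, a topoisomerase of dividing cells, rose from 63.8 to 126.0 TPM (0.98, adjusted p = 0.00183), and the Notch ligand and target Dll1 and Hes5 rose by 0.49 and 0.52 (adjusted p = 0.00237 and 0.00376). Slc1a3, a glutamate transporter of radial glia and astrocytes, fell from 106.0 to 73.4 TPM (-0.52, adjusted p = 0.0014).

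In the genotype comparisons 0 genes of any of the 15 lists were called at either level. At the brachial level the Shh pathway had 3 of 14 genes at an unadjusted p under 0.05 and a median of 0.33, and the general progenitor genes 0 of 14 and -0.01. At the lumbar level these were 3 of 14 with 0.12, and 7 of 14 with 0.23. The 6 MN genes had 2 at an unadjusted p under 0.05 and a median of -0.07 at the brachial level, and 3 with a median of -0.33 at the lumbar level, where all 6 were lower in value. In KO, 5 of 5 blood genes were higher in value at each level (medians 0.48 and 0.42, with 0 at an unadjusted p under 0.05). In lumbar KO, 7 of 8 dorsal progenitor factors were higher in value (median 0.52, 0 at that p) and 13 of 15 genes of neurons born from the stripes were lower (median -0.14, 2 at that p). Much of this lay in 1 library: lumbar KO replicate 3 was the highest lumbar library in 6 of 9 dorsal factors. It was the lowest in 12 of 15 of those neuronal genes. The part of these lists in the members' values was not tested. Over all genes the counts at an unadjusted p under 0.05 were 2330 of 16775 in brachial cord and 808 of 16629 in lumbar cord. The median over all genes was -0.01 in both comparisons.

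Markers of other cells also differed between levels, where 18.5% of all genes were called and 9.62% were called lower. Of 6 MN genes 2 were called lower at the lumbar level and 0 higher, Prph (-2.62, adjusted p = 1.42e-07) and the choline transporter Slc5a7 (-1.10, 1.98e-05). The other 4 were Mnx1 (0.25), Isl1 (0.09), Chat (0.16) and Slc18a3 (-0.09), none of them called. The summed MN level of 387 to 477 TPM in brachial and 153 to 265 in lumbar libraries includes Prph, with means of 285 and 48.6 TPM. The microglial genes Csf1r, Cx3cr1 and C1qa were lower (3 of 4, summed 11.4 to 19.4 against 5.33 to 12 TPM), and so were the endothelial genes Kdr and Cldn5 (2 of 4, 53.7 to 74.7 against 43.8 to 56.7). Called lower were also Erbb3 of the Schwann cell and crest list (1 of 4 tested, summed 20.1 to 25.1 against 15.2 to 26.1 TPM), Col1a2 of mesenchyme (1 of 2 tested, 30.3 to 45.7 against 33.2 to 48.9) and Snap25 of the neuronal list (1 of 6, 3670 to 4200 against 3450 to 4130). Of 5 blood genes and 4 tested sensory neuron genes 0 were called, with summed levels of 1910 to 5380 against 1950 to 4060 and of 12.2 to 18.9 against 12.7 to 17.4 TPM. Pax1, of the sclerotome, was listed at 0 in 11 of 12 libraries. The part of these cells in the member differences was not tested.

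A pair of KO libraries stood apart in the factors themselves. Lumbar KO replicate 3 was the lowest of the 6 lumbar libraries in 8 of the 10 factors, in 12 of 15 genes of neurons born from the stripes and in 5 of 6 floor plate genes, and the highest in 6 of 9 dorsal progenitor factors. Its Pax3 was at 17.4 TPM against 6.51 to 11.8 in the other lumbar libraries. Brachial KO replicate 3 was the highest of the 6 brachial libraries in 5 of the 10 factors, in 10 of 14 Shh pathway genes, in 5 of 6 floor plate genes and in 10 of 15 of those neuronal genes. Markers of other cells moved too. Brachial KO replicate 3 was the highest brachial library in 4 of 5 blood genes. Lumbar KO replicate 3 was the lowest lumbar library in 5 of 6 genes of the neuronal marker list and the highest in 3 of 4 endothelial genes. These libraries were singled out by the factors' own values. For a factor low in the lumbar library and high in the brachial one, leaving both out raises the lumbar minus brachial difference by construction. Calls gained without these libraries therefore support nothing. Olig1 was not such a factor, because brachial KO replicate 3 was its lowest brachial library (1.85 TPM). With both left out, the same 4 factors were called and 2 more passed, Dbx1 (0.51, adjusted p = 0.0179) and Dbx2 (0.42, adjusted p = 0.0202). Nkx6-1 was then 1.20 (0.00223), Irx3 0.48 (0.0194), Olig2 -0.70 (0.0237) and Olig1 -2.44 (0.00972). What set these libraries apart was not tested.

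**Figure D5:**
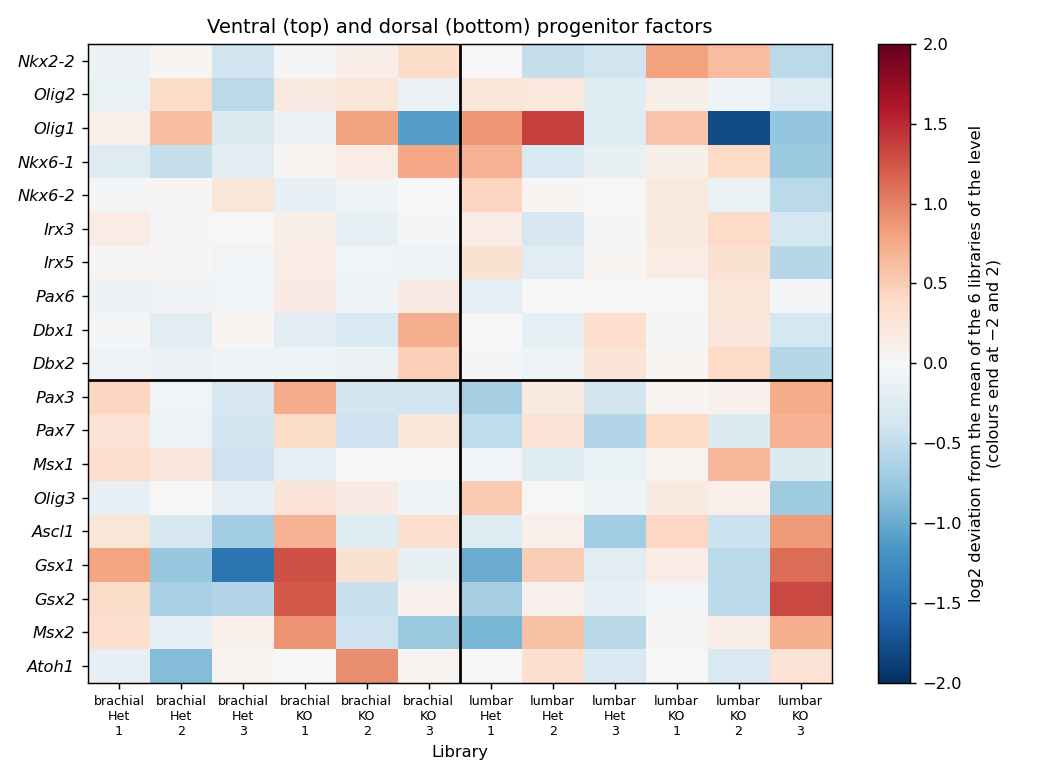
Deviation of each library from the mean of the 6 libraries of its level (log2 of rescaled TPM + 0.1), for the 10 ventral factors (top) and 9 dorsal progenitor factors (bottom). Lumbar KO replicate 3 is blue in most ventral and red in most dorsal rows, and brachial KO replicate 3 is red for Nkx6-1, Dbx1 and Dbx2.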

How the data were processed

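Bulk RNA-seq of E12.5 ventral spinal cord was analysed in 12 libraries, grouped by level and genotype as labelled. The authors extracted total RNA (RIN 9.6 to 10 per the labels), depleted ribosomal RNA, made stranded libraries, and processed reads, per the labels, with FastQC 0.11.7, Trimmomatic 0.38, HISAT2 2.1.0, Bowtie2 2.3.4.1 and StringTie 2.1.3b on mm10. The deposited TPM values are scaled by the authors to a fixed total per library. The deposited FPKM values are scaled to length and mapped fragments and served only for depth. The deposited coverage values are the authors' mean per-base signal. No counts are in the tables, so the study's DESeq2 test was not run and a gene's counting error is unknown.

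Names and coordinates came from RefSeq (GRCm38.p6), which held 45679 of 45777 identifiers, 96.3% with the same coordinates. Up to 6 identifiers on more than 1 line were summed. Depth is the ratio of coverage to FPKM, constant over 95.5% to 96.5% of single-transcript genes. After division by size factors (median of ratios), log2(TPM + 0.1) of each gene averaging 0.5 TPM or more entered limma 3.58.1 under R 4.3.3 (eBayes with a trend), per level for genotype and over 12 libraries for level (genotype as covariate) and interaction. The code was tested on simulated data. Paralogue ratios were chosen after the member values were seen, and so were 2 alternatives, leaving out 2 KO libraries and embryo sex read from Ddx3y (above 1 TPM). Other alternatives were other pseudocounts, filters, scalings and units, a replicate block that takes same-numbered libraries as pairs, and leaving out each library.

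The 10 factors and all lists were chosen with earlier results of these data known. Named genes are the 10, genes overlapping them, Isl2 and Mnx1, and at most 4 called genes per list and comparison, by smallest p. A called gene of the list of neurons is not reported here. Sox10 was named as a member of a list of 4 genes, and Pax3 and Pax1 after their values were seen. Same-numbered Het and KO libraries had deviations from their group means that correlated at 0.079, 0.229 and 0.009 in brachial cord and at 0.145, -0.208 and -0.093 in lumbar cord. Same-numbered brachial and lumbar libraries correlated at -0.022, 0.197 and 0.338 in Het and at 0.029, -0.214 and 0.071 in KO, so numbers were not taken to pair libraries. Plots were drawn with matplotlib 3.10.9.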

Additional observations from a re-analysis of the deposited data

How the results depend on the processing

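The 4 calls between levels fell to 2 with no filter and with TPM as deposited (Olig1 and Olig2 each time), to 1 with Het libraries only and to 0 with KO libraries only, where 3 libraries face 3. Leaving out each library gave 2 to 4. On deposited TPM the median of all genes was 0.16 for brachial KO minus Het and -0.125 between levels, against -0.012 and 0.012 after rescaling, and the differences of Nkx6-1 and Irx3 between levels were then 0.76 and 0.28. With the replicate block 3 of the 10 remained called between levels, with Nkx6-1 at an adjusted p of 0.0553, and 0 in the genotype and interaction fits. All 5 blood genes were lowest in replicate 1 of each group, and 3 of 6 same-numbered brachial and lumbar libraries had the same Ddx3y state. With embryo sex as a term, 4 were called.

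For the two-sided form of the study's threshold, the brachial count of 1 went to 0 in the fit of all 12 libraries and ran from 0 to 1 in the leave-outs, and the lumbar count of 0 ran from 0 to 1. No factor was called by genotype or in the interaction under any alternative run.

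Of 839 alternative values of single factors, 771 kept their direction and side of the threshold, 22 lost a call, 3 gained one and 43 changed sign, all 43 of them in differences that were not called. TPM as deposited turned the brachial genotype differences of Nkx6-2 to 0.01, Irx3 to 0.12 and Irx5 to 0.17, and the level difference of Nkx6-2 to -0.13, which was -0.07 in KO libraries and -0.01 with sex as a term. Coverage in place of TPM turned Nkx2-2 to -0.05 (lumbar genotype), 0.03 (level) and -0.56 (interaction). Without the 2 KO libraries that stand apart, interaction differences became 0.07 for Nkx6-2, 0.15 for Irx5, 0.05 for Pax6, 0.24 for Dbx1 and 0.19 for Dbx2.

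Leave-outs changed sign as follows. Brachial genotype differences ran from -0.01 to 0.44 for Olig2, from -0.74 to 0.20 for Olig1, from -0.14 to 0.02 for Irx3, from -0.08 to 0.05 for Irx5, from -0.19 to 0.32 for Dbx1 and from -0.01 to 0.29 for Dbx2. Lumbar ones ran from -0.40 to 0.17 for Nkx6-1, from -0.01 to 0.36 for Irx3, from -0.25 to 0.20 for Irx5, from -0.25 to 0.04 for Dbx1 and from -0.31 to 0.17 for Dbx2. The level difference of Nkx6-2 ran from -0.06 to 0.11. Interaction differences ran from -0.34 to 0.03 for Nkx6-2, from -0.24 to 0.20 for Irx5, from -0.14 to 0.01 for Pax6 and from -0.43 to 0.09 for Dbx1. Where a sign change is given, the cause was not tested.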
